A study of Sus scrofa with 9 samples.

Results

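The genes described here encode the enzymes that switch the pyruvate dehydrogenase complex off and on: the kinases PDK1, PDK2, PDK3 and PDK4 and the phosphatase catalytic subunit PDP1. They were taken by gene symbol from a table of counts per gene, where each of the 5 symbols had 1 row among 30942 genes. All 5 passed the filter on low counts, in every group and not only where they were high, and they are among 14846 genes tested.

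The pyruvate dehydrogenase complex sits in the mitochondrial matrix and converts pyruvate to acetyl-CoA, which links glycolysis to the tricarboxylic acid (TCA) cycle. The kinases phosphorylate its E1 alpha subunit and so inactivate it, and the phosphatases remove the phosphate and reactivate it. In heart muscle this switch sets how much glucose-derived carbon is burned beside fatty acids, and PDK4 is the kinase known to be induced by fasting, fatty acids, PPAR receptors and estrogen-related receptors.

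The hearts came from wild-type miniature pigs (Sus scrofa), and messenger RNA libraries from them were sequenced after the pigs had received doxorubicin plus formononetin, doxorubicin alone, or vehicle, with 3 libraries in each group. Doxorubicin is an anthracycline chemotherapy drug known for damage to heart muscle, and formononetin is a plant isoflavone. The series title places the study around estrogen-related receptor alpha (ERR-alpha, gene ESRRA) and mitochondrial metabolism. The sources used here do not give the dose, the length of treatment, the part of the heart or the age and sex of the pigs. They also do not say whether each library came from a separate animal, and the p-values therefore reflect the spread between these libraries, which may be technical.

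Total counts lay between 16291952 and 17549359 per library. The second library with doxorubicin plus formononetin stood apart with 14766 genes detected (1 count or more), while the other 8 libraries had 18107 to 19304. Cardiomyocyte transcripts were abundant in all libraries, and no cardiomyocyte marker listed was at 0 in any group. Levels below are CPM (counts divided by library size and given per 1e+06), scaled between libraries by the TMM method. The call rule was an adjusted p below 0.05 in edgeR's quasi-likelihood test, with Benjamini-Hochberg adjustment over all genes tested, and fold changes are log2 values ± SE from that test.

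The 5 genes lie on different chromosomes of the pig assembly Sscrofa11.1. PDK1 is on chromosome 15 (78608394 to 78650958, plus strand), PDK2 on chromosome 12 (26274562 to 26295787, plus strand) and PDK3 on chromosome X (20486205 to 20598492, plus strand). PDK4 is on chromosome 9 (75246956 to 75260134, minus strand) and PDP1 on chromosome 4 (42769232 to 42777936, minus strand). The whole PDK4 locus lies inside the span of ASB4, which is on the opposite strand and encodes an ankyrin repeat and SOCS box protein. The sources used here do not say whether reads were counted by strand. ASB4 did not pass in any comparison (adjusted p = 0.505 for doxorubicin plus formononetin against doxorubicin) and had 786 to 1110 counts per library. The other genes that overlap a kinase locus, SAMD14 beside PDK2 among them, had at most 29 counts in any library.

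Per length, PDK4 was the most abundant of the 5 transcripts in vehicle and doxorubicin hearts, and PDK2 was in hearts given doxorubicin plus formononetin. The lengths are those in the authors' table, and these levels are TMM-scaled CPM per kilobase. With doxorubicin plus formononetin the order ran PDK2 (47.5 ± 2.09, SD, n = 3), PDK1 (36.1 ± 3.84), PDK4 (23.4 ± 4.95), PDP1 (12.5 ± 0.66) and PDK3 (6.36 ± 1.17), with no overlap between neighbours. With doxorubicin it ran PDK4 (82.4 ± 27.1), PDK2 (27.1 ± 1.77), PDK1 (25.1 ± 3.79), PDP1 (11.2 ± 1.52) and PDK3 (7.36 ± 0.28), and only PDK2 and PDK1 overlapped. With vehicle it ran PDK4 (95.6 ± 19.8), PDK2 (35.4 ± 2.25), PDK1 (19.6 ± 0.67), PDP1 (10.4 ± 0.33) and PDK3 (5.53 ± 0.17), again with no overlap between neighbours. The place of PDK3 rests on its listed length of 13793 bases, which is far above the 3436 to 4936 bases listed for the others.

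**Figure D1:**
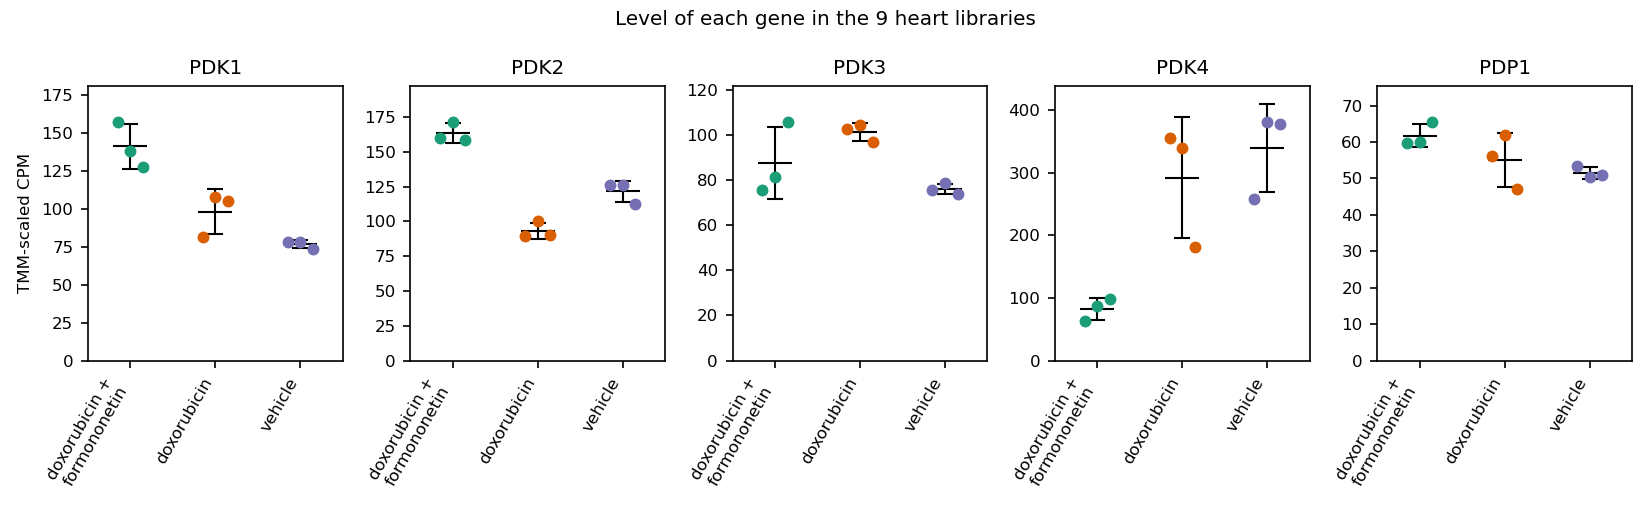
TMM-scaled CPM (vertical axes, each from 0) of the 5 genes in the 9 libraries, grouped as doxorubicin plus formononetin, doxorubicin and vehicle. Points are libraries, horizontal bars are means and whiskers are SDs of 3 libraries. PDK4 reached at most 98.3 CPM with doxorubicin plus formononetin, below the 181 CPM of the lowest doxorubicin library, while PDK2 was highest in the first group.

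PDK4, the kinase of the fasted and fat-burning heart, fell with doxorubicin plus formononetin against both other groups and was not called with doxorubicin against vehicle. It stood at 63.8, 86.9 and 98.3 CPM in the doxorubicin plus formononetin libraries, against 355, 340.0 and 181 CPM in the doxorubicin libraries. The vehicle libraries held 258, 381 and 379 CPM. The doxorubicin plus formononetin libraries were all below every other library, and the doxorubicin and vehicle libraries overlapped, with the third doxorubicin library the lowest of those 6. Against doxorubicin the log2 fold change was -1.82 ± 0.26 (95% interval -2.38 to -1.25, adjusted p = 0.000697), a level 3.52-fold lower. Against vehicle it was -2.03 ± 0.26 (-2.60 to -1.47, adjusted p = 0.00296), a level 4.09-fold lower. Of 14846 genes tested, 1.76% were called in the comparison with vehicle, and 0.808% were called lower. PDK4 had the 24th largest fall among the 120 called lower there.

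For doxorubicin against vehicle the log2 fold change of PDK4 was -0.22 ± 0.25 (95% interval -0.76 to 0.33, adjusted p = 0.542). Without the third doxorubicin library it was 0.036, so no direction can be given for PDK4 with doxorubicin alone. The calls of PDK4 with doxorubicin plus formononetin held with each library left out in turn, at -2.07 to -1.65 against doxorubicin and -2.19 to -1.87 against vehicle. In bulk hearts, fewer cells of a type and less RNA per cell cannot be told apart.

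PDK2 and PDK1 moved the other way from PDK4 when formononetin was added. PDK2, the kinase found in most tissues, had 160.1, 172 and 158 CPM with doxorubicin plus formononetin, against 89.3, 100.1 and 89.9 CPM with doxorubicin. Vehicle libraries held 126, 126 and 113 CPM, so that none of the 3 groups overlapped. PDK2 fell with doxorubicin against vehicle by 0.39 ± 0.10 on the log2 scale (adjusted p = 0.0111). It rose with doxorubicin plus formononetin against doxorubicin by 0.81 ± 0.10 (95% interval 0.60 to 1.03, adjusted p = 0.000328), a level 1.75-fold higher. Both PDK2 calls held with each library left out. Against vehicle the value was 0.43 ± 0.10 and did not pass (adjusted p = 0.0536). DESeq2 called that last difference (adjusted p = 0.0036), as did edgeR with a minimum count of 50 (0.0427).

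PDK1, a kinase known as a target of the hypoxia factor HIF-1, was highest with doxorubicin plus formononetin and lowest with vehicle. It had 157, 138 and 128 CPM with doxorubicin plus formononetin, 81.1, 108 and 105 CPM with doxorubicin and 78.1, 77.9 and 73.5 CPM with vehicle. No group overlapped another. PDK1 rose with doxorubicin plus formononetin by 0.88 ± 0.13 against vehicle (95% interval 0.60 to 1.16, adjusted p = 0.0065) and by 0.52 ± 0.13 against doxorubicin (0.25 to 0.80, adjusted p = 0.011). The call against vehicle was lost without the third vehicle library, where the adjusted p was 0.05 when rounded and the log2 fold change 0.85. With doxorubicin against vehicle the rise of PDK1 was small (0.36 ± 0.13, adjusted p = 0.0482). Leaving out any vehicle library, the second doxorubicin library or the third lost that call (adjusted p up to 0.17). It was also lost with limma-voom (0.0519), upper-quartile scaling (0.0722) and no filter on low counts (0.0713).

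PDK3, another kinase isoform, rose with doxorubicin against vehicle, and PDP1, the calcium-activated phosphatase subunit of heart and skeletal muscle, was not called in any comparison. PDK3 had 103, 105 and 97.2 CPM with doxorubicin, all above the 75.9, 78.7 and 74.1 CPM with vehicle (log2 fold change 0.41 ± 0.12, adjusted p = 0.0253). Leaving out any vehicle library, or the first or second doxorubicin library, lost the call (highest adjusted p = 0.0878). The doxorubicin plus formononetin libraries held 75.7, 81.3 and 106 CPM of PDK3 and overlapped both other groups. Their difference from doxorubicin was -0.21 ± 0.12 (95% interval -0.48 to 0.06, adjusted p = 0.227), and without the third of these libraries it was -0.37 and passed (adjusted p = 0.0213). Against vehicle it was 0.20 ± 0.12 (-0.07 to 0.47, adjusted p = 0.446).

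PDP1 had 59.8, 59.98 and 65.6 CPM with doxorubicin plus formononetin, 56.2, 62.0 and 47.1 CPM with doxorubicin and 53.3, 50.3 and 50.9 CPM with vehicle. The first group lay above vehicle without overlap, and the doxorubicin libraries spanned both. The log2 fold change was 0.10 ± 0.11 for doxorubicin against vehicle (95% interval -0.15 to 0.34, adjusted p = 0.549). It was 0.17 ± 0.11 for doxorubicin plus formononetin against doxorubicin (-0.08 to 0.41, adjusted p = 0.299) and 0.26 ± 0.11 against vehicle (0.014 to 0.51, adjusted p = 0.275).

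In all, 3 of the 5 genes were called with doxorubicin against vehicle, PDK1 and PDK3 higher and PDK2 lower. Of all genes tested, 33.3% were called there, 16.3% higher and 17% lower. The groups did not overlap for the same 3 genes, nor for 55.3% of all genes. Against doxorubicin, 3 of 5 were called with doxorubicin plus formononetin, PDK1 and PDK2 higher and PDK4 lower, beside 28.1% of all genes, 14.7% higher and 13.5% lower. The groups did not overlap for these 3 genes, nor for 42.2% of all genes. Against vehicle, 2 of 5 were called with doxorubicin plus formononetin, PDK1 higher and PDK4 lower, beside 1.76% of all genes, 0.956% higher and 0.808% lower. The groups did not overlap there for 4 of the 5 genes, all but PDK3, nor for 23.6% of all genes. The number of all genes called in that last comparison, 262, depended on single libraries: it was 103, 94 and 64 without vehicle library 1, 2 and 3, 155 without doxorubicin library 2, and 120 and 465 without doxorubicin plus formononetin library 1 and 3. The comparisons share libraries, so their values for 1 gene are not independent of each other.

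**Figure D2:**
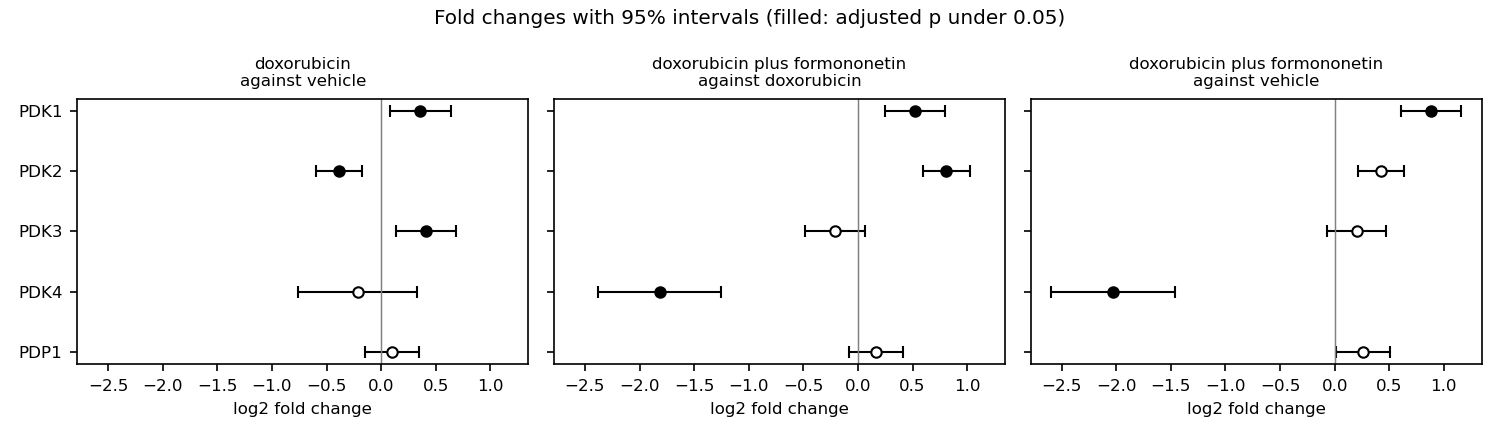
Log2 fold change (horizontal axes) of the 5 genes in the 3 comparisons, with 95% intervals as bars, and filled points where the adjusted p was under 0.05. PDK4 stands at -1.82 and -2.03 in the comparisons of doxorubicin plus formononetin with doxorubicin and with vehicle, on the opposite side of 0 from PDK1 and PDK2.

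The make-up of the kinase transcripts differed between the groups, with a smaller share of PDK4 and larger shares of PDK2 and PDK1 in hearts given doxorubicin plus formononetin. These are RNA levels and do not give the amount or activity of the proteins. The level of PDK2 did not pass against vehicle (adjusted p = 0.0536 in edgeR's quasi-likelihood test). Summed per length, the 4 kinases came to 113 ± 2.74 CPM per kilobase with doxorubicin plus formononetin, 142 ± 26.7 with doxorubicin and 156 ± 18.6 with vehicle (SD, n = 3 each). The lowest doxorubicin library, at 111, fell within the range of the doxorubicin plus formononetin libraries. PDK4 made up 20.6% ± 4.02 of that sum with doxorubicin plus formononetin, 56.9% ± 9.81 with doxorubicin and 60.8% ± 6.03 with vehicle. The share of PDK2 was 41.9% ± 1.44 with doxorubicin plus formononetin, 19.5% ± 3.52 with doxorubicin and 23.0% ± 3.75 with vehicle. PDK1 took 31.9% ± 4.09 with doxorubicin plus formononetin, 18.3% ± 5.47 with doxorubicin and 12.7% ± 1.86 with vehicle. The 3 kinases other than PDK4 summed to 90.0 ± 3.11 CPM per kilobase with doxorubicin plus formononetin, above both doxorubicin (59.6 ± 5.09) and vehicle (60.5 ± 3.06) in every library.

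The ratio of PDK4 to PDK2 per length ran from 0.386 to 0.602 in doxorubicin plus formononetin libraries, from 1.95 to 3.85 with doxorubicin and from 1.98 to 3.25 with vehicle. The summed kinases stood at 8.60 to 9.52 times the per-length level of PDP1 with doxorubicin plus formononetin, 11.7 to 13.6 times with doxorubicin and 12.5 to 16.7 times with vehicle. These sums, shares and ratios describe the libraries and were not tested.

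**Figure D3:**
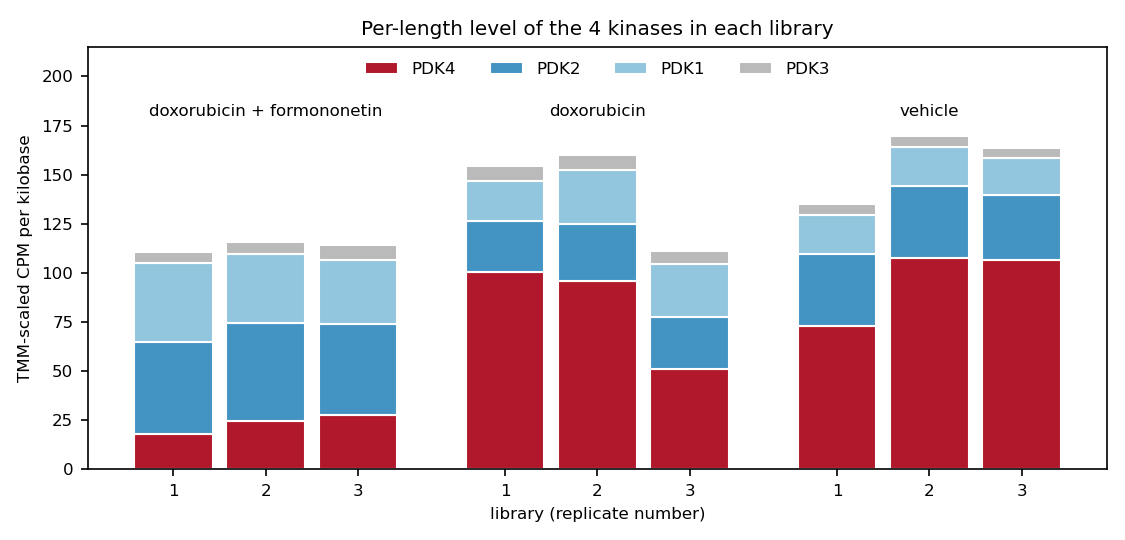
Stacked per-length levels of the 4 kinases (vertical axis, TMM-scaled CPM per kilobase, from 0) in each library, by replicate number (horizontal axis) within doxorubicin plus formononetin, doxorubicin and vehicle. The PDK4 block is between 16.3% and 24.3% of each bar in the first group and at least 45.9% in each other bar.

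Of the 5 tested subunits of the complex that these enzymes act on, 1 fell with doxorubicin against vehicle and 1 rose with doxorubicin plus formononetin against doxorubicin, PDHA1 in both cases. That is 1 of 5 where 33.3% and 28.1% of all genes were called, so the count is no more than the background. PDHA1, the E1 alpha subunit that carries the phosphorylation sites, had 1033, 866 and 1128 CPM with doxorubicin plus formononetin, 646, 728 and 706 CPM with doxorubicin and 988, 936 and 837 CPM with vehicle. It rose with doxorubicin plus formononetin against doxorubicin by 0.54 ± 0.12 (adjusted p = 0.00667), and its difference from vehicle was 0.13 ± 0.12 (adjusted p = 0.605). PDHA1 fell with doxorubicin against vehicle by 0.41 ± 0.12 on the log2 scale (adjusted p = 0.0207), a call lost without the first doxorubicin library or the first or second vehicle library (highest adjusted p = 0.0946). The other listed subunits, PDHB (E1 beta), DLAT (E2), DLD (E3) and PDHX (the E3-binding protein), were not called in any comparison. The second phosphatase gene PDP2 and the phosphatase regulatory subunit PDPR were not called either. PDP2 had 6.65 to 10.9 CPM over all libraries and PDPR 59.9 to 104 CPM.

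Genes that bring pyruvate in or turn it to other products moved both ways. Of 14 tested, 2 rose and 3 fell with doxorubicin against vehicle, with a median log2 fold change of 0.04. Against doxorubicin, 4 rose and 3 fell with doxorubicin plus formononetin (median -0.10), and 0 were called against vehicle (median 0.03). Over all genes tested the medians of these comparisons were -0.0019, -0.010 and -0.011. Of all genes, 33.3%, 28.1% and 1.76% were called in them, shares to set beside the counts of this and each later list. LDHA, the lactate dehydrogenase subunit that favours lactate formation, rose with doxorubicin by 0.83 ± 0.11 (adjusted p = 0.000358). LDHA with doxorubicin plus formononetin was at 42.9, 45.0 and 39.3 CPM, below the 89.4, 80.6 and 98.1 CPM with doxorubicin (-1.08 ± 0.11, adjusted p = 0.000149) and near the 51.4, 46.1 and 53.7 CPM with vehicle.

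The malic enzyme ME1 rose with doxorubicin (1.05 ± 0.26), and the lactate exporter SLC16A3, the alanine transaminase GPT and the malic enzyme ME3 fell. SLC16A3 was at -1.65 ± 0.39 and GPT at -0.45 ± 0.12, and the GPT call was lost without the first doxorubicin library (adjusted p = 0.0521). The levels of SLC16A3 were low, at 0.492 to 1.78 CPM with doxorubicin and 3.55 to 4.18 CPM with vehicle. With doxorubicin plus formononetin SLC16A3 had 4.08 to 5.22 CPM. With doxorubicin plus formononetin against doxorubicin, SLC16A3 (1.90 ± 0.39) and GPT (0.59 ± 0.12) rose with ME3 and pyruvate carboxylase PC, and ME1 (-0.88 ± 0.26) fell with LDHA and BSG, the chaperone of lactate transporters. The ME1 call was lost without the first or the third doxorubicin plus formononetin library or the second or the third doxorubicin library (highest adjusted p = 0.0839). The calls of ME3, PC and BSG also depended on single libraries. That of ME3 with doxorubicin was lost without the first or the third doxorubicin library or the first or the second vehicle library (highest adjusted p = 0.0936). Its call against doxorubicin was lost without the first or the third library of either group or the first vehicle library (highest adjusted p = 0.122). PC lost its call without the first or the second doxorubicin plus formononetin library or the first or the third doxorubicin library (highest adjusted p = 0.105), and BSG without any single library (highest adjusted p = 0.122). BSG also lost it with upper-quartile scaling (0.0602) and with no filter on low counts (0.096). The mitochondrial pyruvate carrier subunits MPC1 and MPC2 were not called in any comparison.

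Among relatives of the complex that share its lipoate cofactor or its mode of control, 1 of 11 rose and 2 fell with doxorubicin (median -0.07). Of all genes, 33.3% were called there, so the count is no more than the background. OGDH, the E1 subunit of the oxoglutarate dehydrogenase complex, fell by 0.72 ± 0.10 on the log2 scale and BCKDHA, the E1 alpha subunit of the branched-chain complex, by 0.68 ± 0.14. The lipoate synthase LIAS rose by 0.53 ± 0.18 (adjusted p = 0.0402), a call lost without any vehicle library, without the second or the third doxorubicin library or without the first doxorubicin plus formononetin library (highest adjusted p = 0.157), and also with upper-quartile scaling (adjusted p = 0.0525). Against doxorubicin, where 28.1% of all genes were called, 4 of the 11 rose with doxorubicin plus formononetin and 0 fell (median 0.32). These were OGDH (0.69 ± 0.10), BCKDHA (0.59 ± 0.14), DHTKD1 (0.49 ± 0.14) and PPM1K (0.40 ± 0.13), which is the phosphatase of the branched-chain complex. The last 2 calls were each lost when any doxorubicin library was left out, or the first doxorubicin plus formononetin library. The PPM1K call was also lost without the second of those libraries or the second vehicle library (highest adjusted p = 0.0869 for DHTKD1 and 0.145 for PPM1K). BCKDK, the branched-chain kinase of the same protein family as the PDKs, was at 0.30 ± 0.11 and did not pass (adjusted p = 0.0654).

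In the TCA cycle, which takes up the acetyl-CoA, 1 of 18 genes rose and 4 fell with doxorubicin (median -0.08). Of all genes, 33.3% were called there, so the count is no more than the background. Among the falls were OGDH, IDH3B (-0.78 ± 0.14) and IDH3G (-0.80 ± 0.12), and MDH1 rose, a call lost without the third doxorubicin library or the second or the third vehicle library (highest adjusted p = 0.0828). With doxorubicin plus formononetin against doxorubicin 4 rose, among them OGDH, IDH3B (0.79 ± 0.14) and IDH3G (0.77 ± 0.12), and 0 fell (median 0.18). Of all genes, 28.1% were called there. Without the second doxorubicin plus formononetin library, when 26.9% of all genes were called, 7 of the 18 rose in that comparison. With doxorubicin against vehicle 2 then rose, where 43.8% of all genes were called. Against vehicle 0 of 18 were called (median 0.12). Of 7 tested genes for the thiamine and CoA cofactors, 1 rose and 2 fell with doxorubicin plus formononetin against doxorubicin. The share of all genes called there was 28.1%. The falls were those of the pantothenate kinase PANK3 (-0.71 ± 0.17) and the thiamine transporter SLC19A2. The SLC19A2 call was lost without the first doxorubicin plus formononetin library or the first or the second doxorubicin library (highest adjusted p = 0.0926) and with no filter on low counts (0.0583).

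Transcription factors and cofactors known to act on PDK genes had 23 tested members, of which 5 rose and 9 fell with doxorubicin (median -0.15). Of all genes, 16.3% were called higher and 17% lower there. The receptor partner RXRA (-1.35 ± 0.13), the ERR coactivator PPARGC1B (-1.31 ± 0.15) and ESRRA (-0.94 ± 0.11) fell. The coactivator PPARGC1A (0.81 ± 0.10), HIF1A (0.72 ± 0.11) and ESRRG (0.43 ± 0.13) rose with PPARG and E2F1. The ESRRG call was lost without the first or second doxorubicin library or the second or the third vehicle library (highest adjusted p = 0.125). Those of PPARG and E2F1 were lost without any single doxorubicin library or the first or the second vehicle library (highest adjusted p = 0.137 for PPARG and 0.138 for E2F1).

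With doxorubicin plus formononetin against doxorubicin 8 regulators rose and 1 fell (median 0.31), beside 14.7% of all genes called higher and 13.5% lower. ESRRA rose to 136, 142 and 134 CPM, against 81.3, 96.4 and 95.1 CPM with doxorubicin (0.59 ± 0.11, adjusted p = 0.00354), and RXRA (1.27 ± 0.13), the ERR cofactor PERM1 (0.90 ± 0.14) and EPAS1 (0.72 ± 0.13) rose as well. HIF1A, whose protein is known to induce PDK1, was the regulator that fell (-0.60 ± 0.11, adjusted p = 0.00301), to 49.4, 57.6 and 57.6 CPM against 90.2, 86.2 and 73.9 CPM with doxorubicin. Against vehicle only PPARGC1A (0.66 ± 0.10, adjusted p = 0.00899) and PPARGC1B (-1.28 ± 0.15, adjusted p = 0.00162) of the 23 were called (median 0.09), and the PPARGC1A call was lost without the second or the third vehicle library (highest adjusted p = 0.0645). ESRRA stood at -0.35 ± 0.11 (adjusted p = 0.156) and HIF1A at 0.12 ± 0.11 (adjusted p = 0.631) in that comparison. The fatty acid receptors PPARA and PPARD and the glucocorticoid receptor NR3C1 were not called in any of the 3 comparisons.

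Genes known, like PDK4, to respond to PPAR receptors or fatty acids moved both ways. Of 15 tested, 2 rose and 4 fell with doxorubicin (median -0.35), and without the second doxorubicin plus formononetin library 6 fell. Of all genes, 33.3% were called there, and 43.8% without that library. CPT1B, which admits fatty acids to heart mitochondria, fell by 0.74 ± 0.11 on the log2 scale, and ANGPTL4 (-1.49 ± 0.24), MLYCD (-1.17 ± 0.20) and ACADVL fell with it, while HADHA (0.61 ± 0.11) and ACADM rose. Against doxorubicin, where 28.1% of all genes were called, 4 rose and 3 fell with doxorubicin plus formononetin (median -0.037). ANGPTL4 (1.16 ± 0.24) and CPT1B (0.61 ± 0.11) rose, and UCP2 and PLIN5 were called higher on values that depended on single libraries. The lipid droplet gene PLIN5 had 7.30, 6.42 and 26.7 CPM with doxorubicin plus formononetin, against 5.35, 3.50 and 2.77 CPM with doxorubicin. Its log2 fold change of 1.79 ± 0.56 dropped to 0.82 without the third doxorubicin plus formononetin library (adjusted p = 0.163), and the call was also lost without any single doxorubicin library (highest adjusted p = 0.117) and with limma-voom (0.0917). UCP2 lost its call without the second or the third library of either group or the third vehicle library (highest adjusted p = 0.114). CPT1A, the liver-type carnitine palmitoyltransferase (-0.51 ± 0.12), PLIN2, a lipid droplet protein (-0.93 ± 0.23), and ACADM fell. The PLIN2 call was lost without the first doxorubicin library (adjusted p = 0.0551). That of ACADM was lost without any single doxorubicin library, the first or the second doxorubicin plus formononetin library or the second or the third vehicle library (highest adjusted p = 0.0903). CPT1B and PDK4 therefore stood on opposite sides of 0 in this comparison.

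Against vehicle, 1 of the 15 rose and 2 fell (median -0.10), beside 1.76% of all genes called. MLYCD, which breaks down malonyl-CoA, had 15.3, 10.2 and 20.9 CPM with doxorubicin plus formononetin, 20.7, 20.6 and 19.9 CPM with doxorubicin and 47.4, 46.5 and 43.8 CPM with vehicle. It fell against vehicle by 1.57 ± 0.20 on the log2 scale (adjusted p = 0.00296), and its difference from doxorubicin was -0.40 ± 0.20 (adjusted p = 0.159). That difference was -0.68 and passed without the third doxorubicin plus formononetin library (adjusted p = 0.0127). CPT1A fell (-0.61 ± 0.12, adjusted p = 0.027) and HADHA rose (0.57 ± 0.11, adjusted p = 0.0245). Both of these calls were lost without any single vehicle library or the first doxorubicin plus formononetin library, and that of HADHA also without the second doxorubicin library (highest adjusted p = 0.146 for CPT1A and 0.148 for HADHA).

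**Figure D4:**
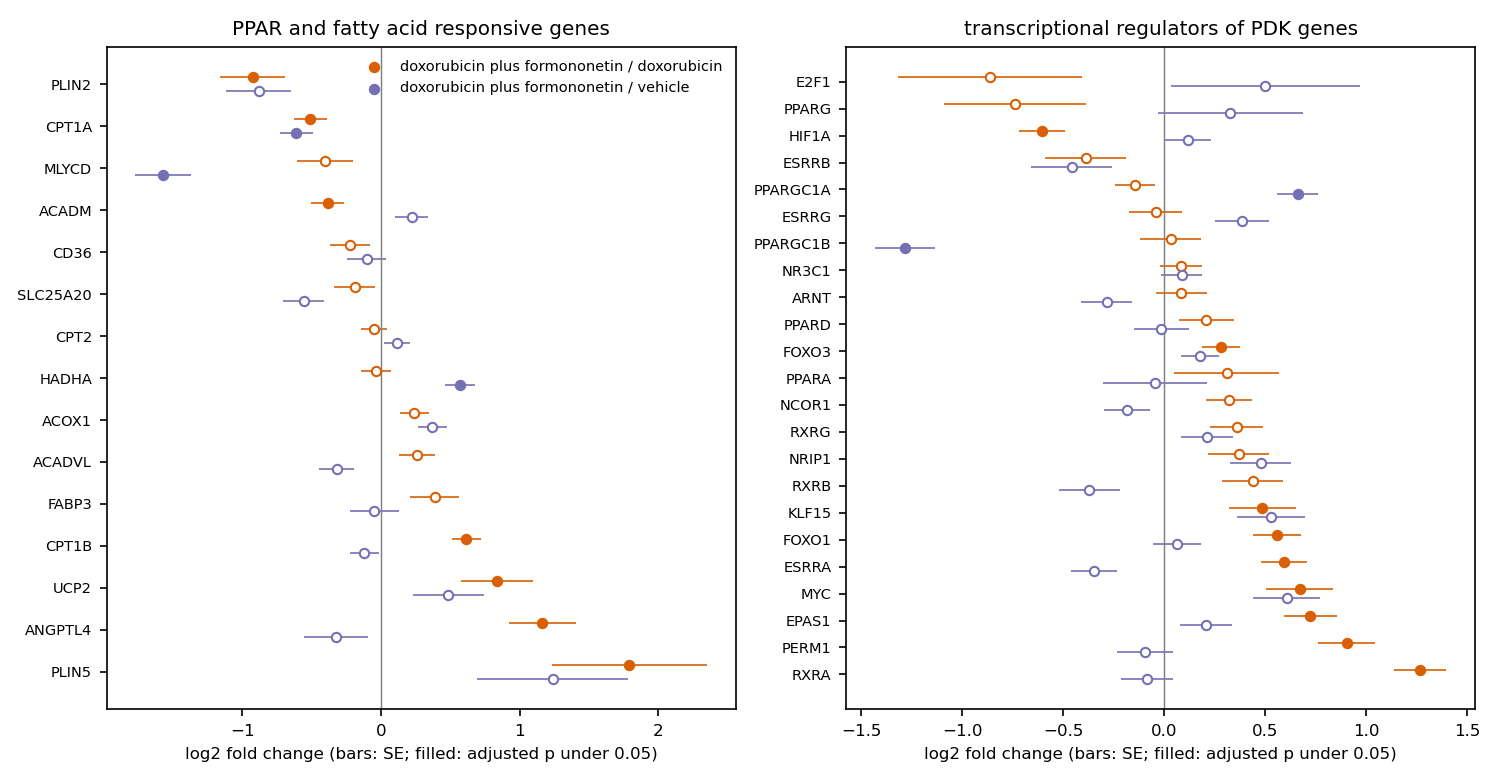
Log2 fold change with SE (horizontal axes) of PPAR and fatty acid responsive genes (left) and of regulators of PDK genes (right), for doxorubicin plus formononetin against doxorubicin (orange) and against vehicle (purple). Filled points passed an adjusted p of 0.05. Few purple points are filled: CPT1A, MLYCD and HADHA on the left and PPARGC1A and PPARGC1B on the right.

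Genes of the hypoxia response, with which PDK1 is commonly grouped, split as well. The shares of all genes called were 33.3% with doxorubicin against vehicle and 28.1% with doxorubicin plus formononetin against doxorubicin. Against vehicle the latter share was 1.76%. With doxorubicin 5 of 22 rose and 6 fell (median 0.012), with LDHA and the prolyl hydroxylase EGLN3 (0.94 ± 0.13) up and NDRG1 (-1.17 ± 0.19) and the glycolytic enzyme ALDOA (-0.73 ± 0.12) down. Against doxorubicin 6 rose with doxorubicin plus formononetin and 6 fell (median -0.12), with ALDOA (0.98 ± 0.12), DDIT4 (0.87 ± 0.14) and NDRG1 (1.13 ± 0.19) up and LDHA down. Against vehicle, where PDK1 rose, 1 of 22 was called (median 0.08). That was the collagen hydroxylase P4HA2 (-0.76 ± 0.12, adjusted p = 0.0107), and its call was lost without the third vehicle library (adjusted p = 0.0705).

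Genes that respond to glucocorticoids or FOXO factors, further known inputs to PDK4, fell in 8 of 17 cases and rose in 2 with doxorubicin (median -0.19). Of all genes, 17% were called lower and 16.3% higher there. IRS2, the insulin receptor substrate, was at -1.53 ± 0.13, KLF9 at -0.95 ± 0.15 and the clock gene PER1 at -0.55 ± 0.10, and the glucocorticoid-induced FKBP5 (0.65 ± 0.12) and SGK1 rose. Against doxorubicin, where 28.1% of all genes were called, 5 rose with doxorubicin plus formononetin and 3 fell (median 0.13). IRS2 (1.49 ± 0.13), KLF9 (1.30 ± 0.15) and ZBTB16 (1.02 ± 0.16) rose, and TXNIP (-0.75 ± 0.12) fell with CCNG2 and GADD45A.

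TXNIP, the thioredoxin-interacting protein that limits glucose uptake, was lowest with doxorubicin plus formononetin and highest with vehicle, at 395, 401 and 522 CPM with doxorubicin plus formononetin, 729, 725 and 767 CPM with doxorubicin and 1012, 926 and 942 CPM with vehicle. TXNIP fell by 0.37 ± 0.12 with doxorubicin against vehicle on the log2 scale (adjusted p = 0.0298) and by 1.13 ± 0.12 with doxorubicin plus formononetin against vehicle (adjusted p = 0.000744). The first of these calls was lost without any single doxorubicin or vehicle library (highest adjusted p = 0.112), and the second held. In that last comparison 2 of the 17 rose, FKBP5 (0.91 ± 0.12, adjusted p = 0.00364) and ZBTB16 (0.83 ± 0.16, adjusted p = 0.0275), and TXNIP was the 1 that fell (median -0.0055). The ZBTB16 call was lost without the first or the third vehicle library, the first doxorubicin plus formononetin library or the second doxorubicin library (highest adjusted p = 0.159).

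Genes whose profile over the 9 libraries was most like that of each called kinase were sought among 12882 other named genes. The measure was the root mean square difference of log2 CPM (with a prior count of 2), centred on each gene's mean. For PDK4 the closest were C15H2orf54 (0.297), the inhibin subunit INHA (0.385), the transfer RNA gene TRNAG-UCC (0.398), ZDHHC23 (0.452) and DSCC1 (0.455), against a median of 1.01 over all candidates. INHA fell with doxorubicin plus formononetin by 1.66 ± 0.23 on the log2 scale against doxorubicin and by 1.79 ± 0.23 against vehicle, and the other 4 had low levels, at most 6.75 CPM in any library. At such levels the prior count shrinks differences. TRNAG-UCC had fitted log2 fold changes of -5.81 against doxorubicin and -6.49 against vehicle, and DSCC1 was not called in any comparison. For PDK2 they were GABBR1 (0.0642), CITED1 (0.0752), TASP1 (0.0905), USP2 (0.105) and YBEY (0.105), with a median of 0.469 over all candidates. For PDK1 they were DHRS11 (0.172), PHYH (0.174), ARHGEF26 (0.179), CTNNBIP1 (0.183) and COQ4 (0.186), with a median of 0.507. For PDK3 they were YTHDC2 (0.0400), SECISBP2L (0.0598), MAPK8 (0.0663), ACBD5 (0.0666) and KDM3A (0.0691), with a median of 0.385. No other member of the set was closer to PDK4 than PDK3 (0.972), while PDK3 and PDP1 differed least (0.208).

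Markers of cell types moved with some of these comparisons, and their part in the kinase results was not tested. Summed cardiomyocyte markers (10 genes) ranged from 62341 to 65745 CPM with doxorubicin plus formononetin, from 47842 to 54865 CPM with doxorubicin and from 70154 to 78105 CPM with vehicle. Of the 10, 8 fell and 1 rose with doxorubicin, 6 rose with doxorubicin plus formononetin against doxorubicin and 0 were called against vehicle. Of all genes, 33.3%, 28.1% and 1.76% were called in these comparisons. Endothelial markers (8 genes) summed to 1233 to 1372 CPM with doxorubicin plus formononetin, 894 to 1061 CPM with doxorubicin and 1065 to 1511 CPM with vehicle. Fibroblast markers (8 genes) summed to 3518 to 7262 CPM with doxorubicin plus formononetin, 2365 to 3454 CPM with doxorubicin and 3258 to 5597 CPM with vehicle. For both lists, and for the cardiomyocyte and the smooth muscle and pericyte lists, the ranges with doxorubicin plus formononetin lay above those with doxorubicin, as PDK1 and PDK2 did. The other comparisons differed for PDK1. With doxorubicin against vehicle its log2 fold change was 0.36, and that of PDK2 was -0.39. With doxorubicin plus formononetin against vehicle PDK1 was called higher and PDK2 was not called, and 0 markers of these lists were called. Of the endothelial markers 3 rose and 0 fell with doxorubicin plus formononetin against doxorubicin, and 4 fell and 0 rose with doxorubicin against vehicle. Of the fibroblast markers 4 rose and 0 fell against doxorubicin, and 3 fell and 0 rose with doxorubicin against vehicle. Smooth muscle and pericyte markers (8 genes) summed to 893 to 1707 CPM with doxorubicin plus formononetin, 767 to 859 CPM with doxorubicin and 768 to 1076 CPM with vehicle, and 3 rose and 1 fell against doxorubicin. Summed adipocyte markers (8 genes) ranged from 1098 to 1218 CPM with doxorubicin plus formononetin, from 1119 to 1286 CPM with doxorubicin and from 1134 to 1376 CPM with vehicle, and these ranges overlapped. Of the 7 tested adipocyte markers, 3 fell and 1 rose with doxorubicin against vehicle (median -1.30), and 5 fell without the second doxorubicin plus formononetin library. Without that library 43.8% of all genes were called there. ADIPOQ, 1 of the listed adipocyte markers and low in every group, averaged 3.26 CPM with doxorubicin plus formononetin, 0.178 CPM with doxorubicin and 3.70 CPM with vehicle. The list as a whole did not follow it, since the summed ranges overlapped and 1 marker rose with doxorubicin. Summed skeletal muscle markers (7 genes) ranged from 0.573 to 7.78 CPM with doxorubicin plus formononetin, from 36.5 to 76.7 CPM with doxorubicin and from 1.14 to 6.69 CPM with vehicle, and the number of the 7 at 0 throughout a group was 2 with doxorubicin plus formononetin, 2 with doxorubicin and 4 with vehicle. Only 1 of the 7, MYL1, passed the filter on low counts, and the sum is nearly all MYL1. Its log2 fold change was 3.90 with doxorubicin against vehicle and -4.32 with doxorubicin plus formononetin against doxorubicin. The untested markers had at most 29 counts over all libraries together (TNNI2), so these sums show no skeletal muscle pattern beyond MYL1. Macrophage markers (10 genes) ranged from 236 to 268 CPM with doxorubicin plus formononetin, from 295 to 319 CPM with doxorubicin and from 164 to 295 CPM with vehicle. The first range lay below that with doxorubicin, as the level of PDK4 did. Of the 10 macrophage markers, 3 fell and 0 rose in that comparison, and 2 rose and 0 fell with doxorubicin against vehicle. The range with doxorubicin plus formononetin lay within that with vehicle, and 0 of the 10 were called between these groups. PDK4, in contrast, was called lower than vehicle there.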

How the data were processed

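The deposited table held whole-number read counts per gene, which the authors left unnormalized, with gene length, symbol and position for each gene per the file headers. The sources used here do not name the aligner, counting tool or strand setting. Gene IDs, symbols and starts were checked against RefSeq's Sscrofa11.1 table, where 30335 of 30942 IDs matched.

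Groups were taken from the sample labels, with 3 libraries each. Genes were filtered with filterByExpr (minimum count 10), scaled by TMM and fitted over all 9 libraries with edgeR 4.0.16 (glmQLFit and glmQLFTest, R 4.3.3), and p-values were adjusted by Benjamini-Hochberg over 14846 genes. SEs were derived from each log2 fold change and its F statistic. Levels per kilobase use the deposited length as given, with no error assigned to it. Comparisons of level between genes depend on that length, as the place of PDK3 shows. Alternatives were other scalings, DESeq2 1.42.0, limma-voom 3.58.1, other filters, 2 groups only, a replicate block, mitochondrial genes left out and each library left out. The fit was also run on simulated counts, drawn independently for each library with the fitted dispersions. Such counts hold no outlying library, so they cannot show how one affects the calls, and no result here rests on them.

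The members and the 20 gene lists were chosen with earlier results of these data known. Named were the 5 members, a fixed set of related genes and up to 4 members of each list by smallest p in a comparison. PDH cofactor, regulator and other genes named beyond these, to complete a short count, were chosen after their values were seen. Some list members are not reported here.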

Additional observations from a re-analysis of the deposited data

How the results depend on the processing

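The calls of PDK4 (both comparisons with doxorubicin plus formononetin), of PDK2 against vehicle with doxorubicin and against doxorubicin with formononetin added, and of PDK1 in that last comparison held under all 18 alternatives run. PDK1 with doxorubicin against vehicle lost its call at a log2 fold change of 0.32 with upper-quartile scaling, 0.35 with limma-voom, 0.34 with no filter and 0.36 with the replicate block, and ranged from 0.29 to 0.48 with 1 library left out. PDK2 with doxorubicin plus formononetin against vehicle gained a call at 0.42 with DESeq2 and 0.43 with a minimum count of 50. With 1 library left out, the ranges were 0.79 to 0.95 for PDK1 against vehicle with doxorubicin plus formononetin, 0.39 to 0.44 for PDK3 with doxorubicin, -0.37 to -0.12 for PDK3 against doxorubicin, and -0.38 to 0.036 for PDK4 with doxorubicin, whose sign reversed at 0.036 without the third doxorubicin library. The causes were not tested.

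Genes called with doxorubicin plus formononetin against vehicle numbered 262, and 675 with DESeq2, 488 with no filter, 118 with the 2 groups alone, 124 with the replicate block and 64 to 465 with 1 library left out. The other comparisons gave 3316 to 6657 (doxorubicin against vehicle) and 2801 to 4436 (doxorubicin plus formononetin against doxorubicin) with 1 library left out. Same-numbered libraries did not deviate together (correlations from -0.204 to 0.0271 over 14846 genes). The deviations are from means of 3 libraries, so these values cannot show whether same-numbered libraries share a batch. The labels do not say what the numbers stand for. Among the 5 genes the block changed the PDK1 call alone (adjusted p = 0.0848). Of 91 comparisons of named list genes, 64 kept their direction and call under all alternatives run. The block ended the LIAS call with doxorubicin, for example (adjusted p = 0.0644).

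The summed kinase level was 149 CPM per kilobase with doxorubicin plus formononetin, 186 with doxorubicin and 203 with vehicle when mitochondrially encoded genes were left out. Without division by length the sum was 475 CPM with doxorubicin plus formononetin, 585 with doxorubicin and 614 with vehicle. The PDK3 share was then 18.4% with doxorubicin plus formononetin, 17.6% with doxorubicin and 12.5% with vehicle, and the PDK2 share with doxorubicin plus formononetin was 34.4%.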

Other observations

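The genes beside PDK4 on chromosome 9 had another profile than PDK4. PON2, a paraoxonase gene 195515 bases before it, rose with doxorubicin against vehicle (log2 fold change 0.99, adjusted p = 0.000137 in edgeR's quasi-likelihood test). PON2 fell with doxorubicin plus formononetin against doxorubicin (-1.19, adjusted p = 8.08e-05), and its difference from vehicle was -0.20 (adjusted p = 0.38). DYNC1I1, a dynein intermediate chain gene 154529 bases after PDK4, stood at 0.84 with doxorubicin against vehicle (adjusted p = 0.0167). With doxorubicin plus formononetin DYNC1I1 was at -0.79 against doxorubicin (adjusted p = 0.0253) and 0.043 against vehicle (adjusted p = 0.945). PPP1R9B, 23336 bases after PDK2, stood at -0.83 with doxorubicin against vehicle (adjusted p = 0.00115). With doxorubicin plus formononetin PPP1R9B was at 0.64 against doxorubicin (adjusted p = 0.00638) and -0.19 against vehicle (adjusted p = 0.504). The nearer neighbour ITGA3, 5235 bases before PDK2, was not called in any comparison (adjusted p from 0.604 to 0.949). ITGA6 and RAPGEF4, on either side of PDK1, were not called either.

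Summed atrial markers (5 genes) ranged from 446 to 787 CPM with doxorubicin plus formononetin, from 132 to 164 CPM with doxorubicin and from 777 to 1042 CPM with vehicle. Of the 5, 1 rose and 1 fell with doxorubicin against vehicle (median log2 fold change -2.11). Against doxorubicin, 1 rose and 1 fell with doxorubicin plus formononetin (median -0.60), although the sum was higher. The sum therefore does not stand for all 5 markers. Their part in the kinase results was not tested.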
